A study of Homo sapiens with 14 samples.

Results

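Cells labelled as dopamine differentiated and given 3 µM of the GSK3 inhibitor CHIR99021 (CHIR) were compared at day 11 with cultures kept at 0.7 µM. This is the first step in a series of 4 doses. The comparison takes 4 of the 14 libraries of the study, the 2 labelled with a 3 µM boost and the 2 labelled 0.7 µM, chosen by these labels alone and paired by replicate number. All cells came from 1 established line of human pluripotent stem cells, H9 (WA-09). Per the labels, both arms received the SHH protein C25II, the BMP and TGF-beta pathway inhibitors LDN and SB431542, and 0.7 µM CHIR up to day 3. From day 4 the labels give the arms different CHIR concentrations and nothing else that differs, and LDN, SB431542 and SHH were withdrawn at day 7. The labels give day 10 and the series text day 9 as the end of this period. On day 10 every arm moved to medium with BDNF, GDNF, ascorbic acid, TGFβ3, dbcAMP and 3 µM CHIR, so the 0.7 µM cultures had also met 3 µM CHIR shortly before RNA was taken at day 11. The 5 and 7.5 µM arms, 2 libraries each, were treated alike apart from the dose and entered the fit.

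GSK3 marks β-catenin for destruction, so blocking it lets β-catenin accumulate, enter the nucleus and switch on WNT target genes together with the TCF/LEF transcription factors. Many of these targets are inhibitors of the pathway itself, which is why they serve as readouts of its activity. In the neural tube WNT activity sets position from front to back, and SHH from the floor plate sets position from bottom to top. Midbrain dopamine neurons arise from the floor plate of the midbrain, where both signals meet.

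Gene counts came to 20.5 and 44.8 M in the 0.7 µM libraries (replicates 1 and 2) and to 26.6 and 28.4 M in the 3 µM libraries. Levels are CPM, counts relative to a library size scaled by TMM, which corrects for differences in RNA composition. A count of 1 was worth 0.0217 to 0.0486 CPM in these libraries. Replicates 1 and 2 differed in the same genes in all 4 arms, with correlations of their deviations from 0.70 to 0.92 over the 6 pairs of arms. The first principal component placed replicate 1 of the 0.7, 3 and 5 µM arms between -82.2 and -77.2 and the replicate 2 libraries between 51.9 and 70.1. Replicate 1 at 7.5 µM stood apart from both at -0.391. Results on the step from 0.7 to 3 µM are therefore given with and without the 7.5 µM libraries. Alignments that were not unique made up 25.0% to 28.3% of all counts in replicate 1 of the 0.7, 3 and 5 µM arms. The share was 17.4% in replicate 1 at 7.5 µM and 15.1% to 17.8% in the replicate 2 libraries. How far this bears on the step from 3 to 7.5 µM was not tested. Neural progenitor genes were abundant in every library, with SOX2 at 198 and 431 CPM at 0.7 µM and at 201 and 323 CPM at 3 µM. FOXA2, a transcription factor of the floor plate, stood at 210 and 70.4 CPM and at 115 and 51.5 CPM in the same order. TH, the enzyme that defines dopamine neurons, had at most 7 counts in any day 11 library.

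The step to 3 µM changed 4 of 18709 genes tested (0.0214%), 3 upward (0.016%) and 1 downward (0.00535%). The gene that rose most was NOTUM (ENSG00000185269, chromosome 17), a secreted enzyme that removes the lipid from WNT proteins and so disables them. ADRA2C (ENSG00000184160, chromosome 4), the alpha-2C adrenergic receptor, rose as well, together with AC141928.1 (ENSG00000250986), a long noncoding RNA whose nearest coding gene is ADRA2C. GPC3 (ENSG00000147257, chromosome X), a glypican, which is a heparan sulfate proteoglycan held on the cell surface that can bind WNT and hedgehog proteins, was the gene that fell.

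NOTUM stood at 0.583 and 0.282 CPM at 0.7 µM (12 and 13 counts) and at 24.3 and 7.97 CPM at 3 µM. The 3 µM libraries lay far above the 0.7 µM libraries, with no overlap, a pattern shared by 7.76% of all genes in this direction and 8.32% in the other. Its log2 fold change was 5.15 (SE 0.45, edgeR adjusted p = 0.00428), and the difference was 4.52 within replicate 1 and 3.44 within replicate 2 on the log2(CPM + 0.5) scale. ADRA2C stood at 5.88 and 2.26 CPM at 0.7 µM and at 41.9 and 25.9 CPM at 3 µM. Both boosted libraries exceeded both others, by a log2 fold change of 3.18 (SE 0.29, edgeR adjusted p = 0.00428). AC141928.1 went from 1.07 and 1.93 CPM to 13.7 and 43 CPM. Unlike NOTUM and ADRA2C, it was higher in replicate 2 than in replicate 1 of both arms. Its log2 fold change was 4.14 (SE 0.42, edgeR adjusted p = 0.00888). GPC3 stood at 216 and 72.8 CPM at 0.7 µM and at 27.5 and 15.1 CPM at 3 µM. The groups did not overlap, and the drop was alike in both pairs, at -2.95 and -2.23 (log2 fold change -2.64, SE 0.29, edgeR adjusted p = 0.0128). The annotation places 2 other genes, AL009174.1 and RPSAP63, on the strand opposite GPC3, and the strandedness of the counting is not given in the sources used here.

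**Figure D1:**
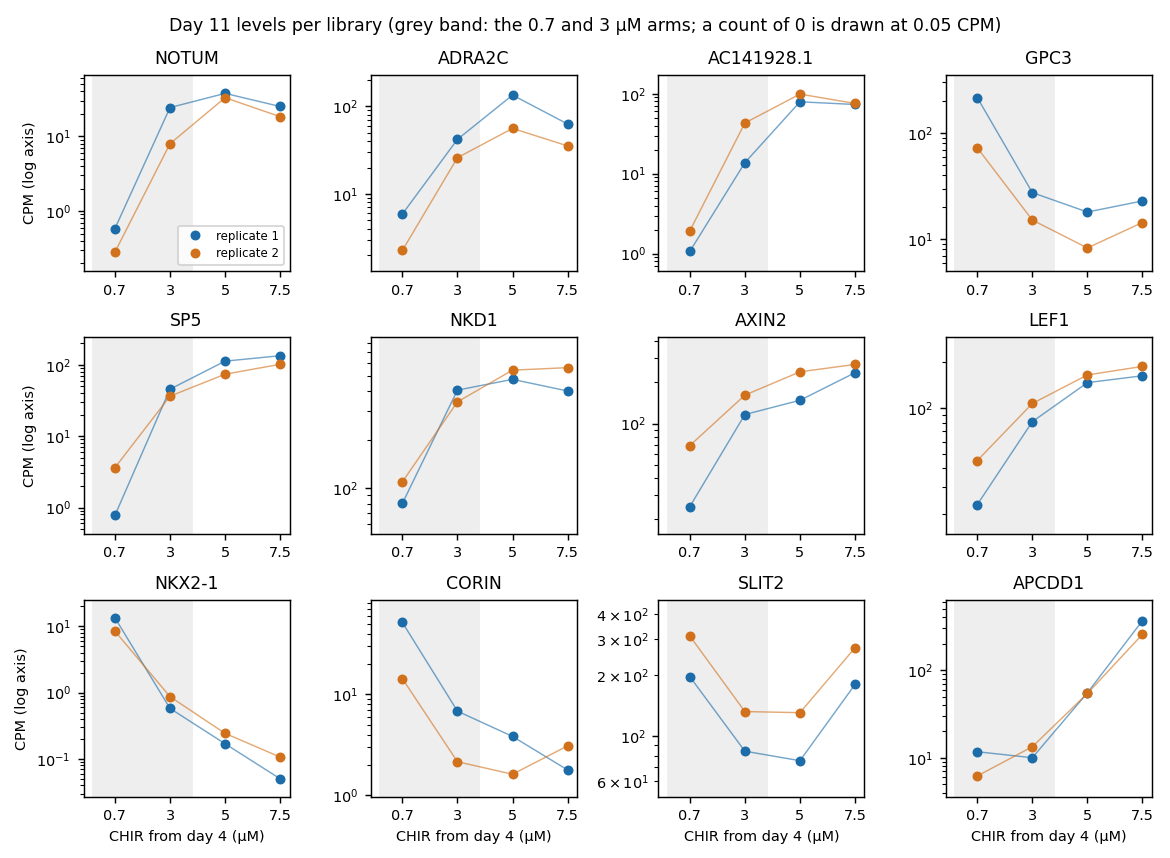
Each panel plots 1 gene, with CPM on a log axis against the CHIR concentration given from day 4, and 1 point per library, coloured by replicate and joined within a replicate. In all panels except APCDD1 both replicates move the same way from 0.7 to 3 µM; NOTUM, ADRA2C and GPC3 differ less between 3 and 7.5 µM than between 0.7 and 3 µM, SLIT2 is higher again at 7.5 µM, and APCDD1 stays between 6.18 and 13.3 CPM up to 3 µM.

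The 4 calls depended on single libraries. Without replicate 1 at 0.7 µM none of them passed, although all kept their direction: NOTUM was at 5.30 (edgeR adjusted p = 0.128) and GPC3 at -2.28 (edgeR adjusted p = 0.189). GPC3 also missed the threshold without replicate 1 at 3 µM, at -2.50 (edgeR adjusted p = 0.0619). Without that library NOTUM was at 4.52, and without replicate 2 at 3 µM AC141928.1 was at 3.36, each lower by more than 1.5 times on the fold scale and past the threshold. Without the 7.5 µM libraries the same 4 passed among 88 genes of 17832 (0.493%), 40 higher (0.224%) and 48 lower (0.269%). Genes described below as passing in that narrower fit are among these 88 and did not pass with all 8 libraries of the series, so they are given by their levels.

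The most sensitive genes were also ranked without the model, by their difference within each replicate pair. At 3 µM, 80 genes were at least 2-fold higher in both pairs (0.428%) and 94 at least 2-fold lower in both (0.502%). The pairs did not respond to the same extent. In replicate 1, 636 genes were at least 2-fold higher and 727 lower, against 200 and 162 in replicate 2. The 80 shared genes made up 12.6% of those higher in pair 1 and 40% of those higher in pair 2, and the 94 made up 12.9% and 58.0% of the lower ones. Only 1 gene moved 2-fold in opposite directions. Across all genes, which are not independent replicates, the correlation of the pair differences was 0.43, and 61.3% had the same sign in both pairs.

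**Figure D2:**
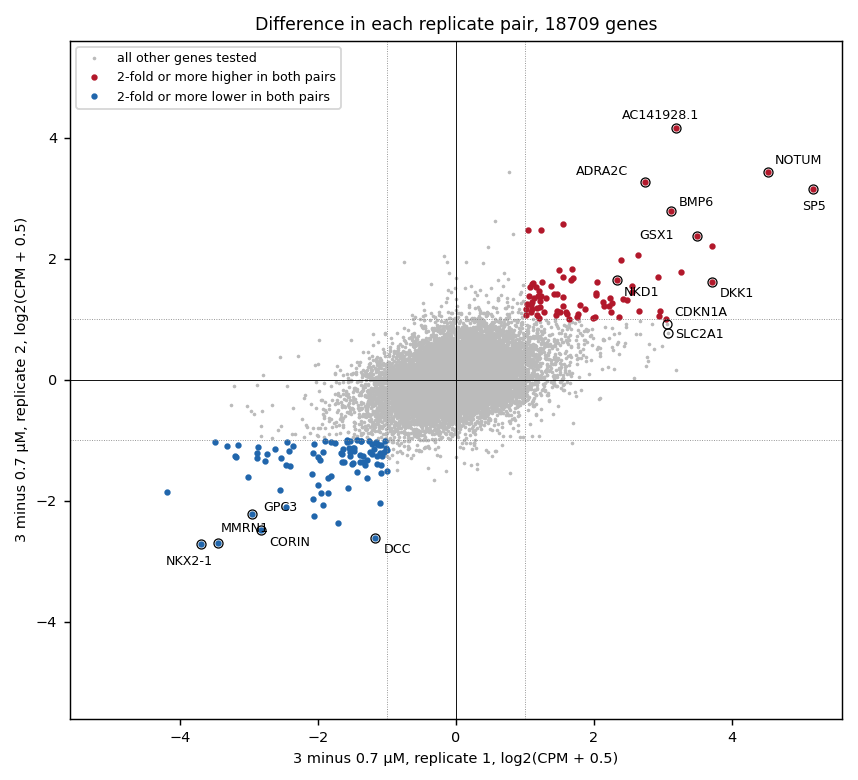
Each point is 1 of 18709 genes, plotted by its difference between 3 and 0.7 µM on the log2(CPM + 0.5) scale in replicate 1 (horizontal) and in replicate 2 (vertical); dotted lines mark 2-fold. The 80 and 94 genes beyond 2-fold in both pairs are coloured, and the spread along the horizontal axis is wider, as in CDKN1A at 3.05 and 0.92.

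Among genes of at least 5 CPM, those with the smallest p after the called genes included known WNT targets. SP5 (ENSG00000204335), a transcription factor that β-catenin induces directly, stood at 0.777 and 3.62 CPM at 0.7 µM and at 45.5 and 36.3 CPM at 3 µM. The libraries were far apart, but the 2 controls differed from each other more than 4-fold, and the log2 fold change of 4.13 (SE 0.56) had an edgeR adjusted p of 0.0599. In the narrower fit SP5 passed at 4.05 (edgeR adjusted p = 0.0244). NKD1, an intracellular inhibitor that binds Dishevelled, was at 80.4 and 109 CPM against 406 and 343 CPM, with the same adjusted p of 0.0599 and 0.00794 in the narrower fit. LEF1, the transcription factor that carries β-catenin to DNA, was at 23 and 44.9 CPM against 81.1 and 107 CPM. AXIN2, a scaffold of the complex that destroys β-catenin, was at 24.7 and 69 CPM against 116 and 161 CPM. Neither LEF1 nor AXIN2 overlapped between the groups, and both passed in the narrower fit (edgeR adjusted p = 0.0273 each).

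The promoters of SP5, DKK1, LEF1 and ADRA2C were read for the TCF/LEF core, spelled CTTTGAT or CTTTGTT and searched on both strands. They are shown because SP5 and DKK1 hold a match within 250 bases before the start and LEF1 and ADRA2C hold none. The windows are from RefSeq on GRCh38.p14, written on the strand of the gene, with the match in capitals. They are SP5 at chr2:170715087-170715336 (plus strand), DKK1 at chr10:52314031-52314280 (plus), LEF1 at chr4:108166302-108166551 (minus) and ADRA2C at chr4:3766135-3766384 (plus).
SP5: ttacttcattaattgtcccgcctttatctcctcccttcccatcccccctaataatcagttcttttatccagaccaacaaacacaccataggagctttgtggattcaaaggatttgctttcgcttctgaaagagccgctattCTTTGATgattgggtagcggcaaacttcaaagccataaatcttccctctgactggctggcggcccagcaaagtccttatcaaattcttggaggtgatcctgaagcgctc
DKK1: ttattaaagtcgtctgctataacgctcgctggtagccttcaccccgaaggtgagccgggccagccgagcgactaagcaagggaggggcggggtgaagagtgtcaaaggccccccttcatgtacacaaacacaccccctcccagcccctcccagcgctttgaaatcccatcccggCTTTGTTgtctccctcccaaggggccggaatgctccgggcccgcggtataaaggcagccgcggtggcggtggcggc
LEF1: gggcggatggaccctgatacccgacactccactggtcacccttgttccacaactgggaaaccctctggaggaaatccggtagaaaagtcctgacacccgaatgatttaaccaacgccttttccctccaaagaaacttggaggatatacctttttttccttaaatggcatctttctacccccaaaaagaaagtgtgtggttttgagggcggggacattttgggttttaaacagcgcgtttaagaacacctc
ADRA2C: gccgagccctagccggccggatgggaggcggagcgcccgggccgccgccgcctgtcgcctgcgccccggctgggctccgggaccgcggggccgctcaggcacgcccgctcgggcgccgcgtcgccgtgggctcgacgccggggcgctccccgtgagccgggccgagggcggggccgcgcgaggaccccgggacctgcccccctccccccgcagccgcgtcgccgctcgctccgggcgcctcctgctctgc
The match in SP5 is CTTTGAT at -109 to -103, counted back from the start, and that in DKK1 is CTTTGTT at -76 to -70. Of 35116 promoter windows of this length, 2316 (6.595%) hold either motif, 794 (2.261%) CTTTGAT and 1580 (4.499%) CTTTGTT. Of the 20 WNT feedback inhibitors, 10 had a window in the table and 2 of these held a match, DKK1 and TPBG. Of the 16 nuclear effectors and targets, 12 had a window and 3 of these held a match, TCF7, TCF7L2 and SP5. These are counts of genes, and a gene counted if any of its windows held a match. They are therefore not on the same scale as the share per window. A match is a run of letters in a window and not a measured binding site.

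Feedback inhibitors held more higher than lower members at 3 µM. Of the 20 tested, 7 were higher and 1 lower with an unadjusted p under 0.05, beside 3.73% and 3.76% of all genes, and the list's median log2 fold change was 0.56 beside 0.03 over all genes. These shares of all genes apply to every list count at this threshold below. A single member of a list at this threshold is not read as a result. Besides NOTUM, NKD1 and AXIN2, the higher members included the ubiquitin ligases ZNRF3 and RNF43, which remove WNT receptors from the cell surface. ZNRF3 was at 68.8 and 73.3 CPM against 118 and 113 CPM, a log2 fold change of 0.70 (SE 0.23). DKK1, a secreted inhibitor that binds the LRP co-receptors, was very unequal between replicates, at 1.75 and 20.7 CPM at 0.7 µM and 29 and 64 CPM at 3 µM. Both boosted libraries exceeded both others, yet its edgeR adjusted p was 0.202 and it did not pass in the narrower fit. APCDD1, a membrane inhibitor of the pathway, differed from these in that its libraries overlapped, at 11.7 and 6.18 CPM against 9.99 and 13.3 CPM.

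The other parts of the pathway were more mixed. Of 16 nuclear effectors and targets, 3 were higher and 2 lower with an unadjusted p under 0.05 (median 0.24). The lower ones were PYGO1, a cofactor of β-catenin, at -0.77 (SE 0.28), and TCF7L2, a TCF factor also prominent in the diencephalon, at -0.71 (SE 0.32). Of 21 ligands and R-spondins 16 had enough counts to be tested, and of these 3 were higher and 2 lower (median 0.41). WNT4 was at 5.83 and 3.6 CPM against 18.7 and 8.21 CPM and passed in the narrower fit (edgeR adjusted p = 0.0498). WNT5A, a ligand of the floor plate that acts mainly without β-catenin, was at 47.1 and 23.7 CPM against 12.2 and 12. The highest 3 µM library of WNT5A thus lay below the lowest 0.7 µM library. WNT1, the ligand of the midbrain-hindbrain boundary, had at most 13 counts in any day 11 library and was not tested. Among 19 receptors and co-receptors 4 were higher and 1, FZD4, lower (median 0.15).

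GPC3 was the only member of its list to pass with all libraries. Of 18 glypicans and heparan sulfate enzymes 17 were tested, with a median of -0.22. At an unadjusted p under 0.05, 3 were lower, GPC3 included, and 1 higher, beside 3.76% and 3.73% of all genes. Without overlap between the groups 7 were lower and 1 higher, beside 8.32% and 7.76%. GPC4, a glypican encoded next to GPC3, was at 54.9 and 89.7 CPM against 24.7 and 49.7 CPM. It did not overlap between the groups and passed in the narrower fit at -1.04 (edgeR adjusted p = 0.047). SULF1, a sulfatase that trims heparan sulfate, was at 52.1 and 39.6 CPM against 20.8 and 28.4, a log2 fold change of -0.90 (SE 0.27). The higher member was HS6ST1, an enzyme that adds sulfate to heparan chains, at 31.5 and 20.7 CPM against 54.8 and 40.4. Of the adrenergic receptors, 4 of 9 had enough counts to be tested, and 1 of these, ADRA2C, passed; the other 5 had at most 22 counts in any day 11 library.

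Most floor plate genes tested were lower at 3 µM than at 0.7 µM. Of the 18 tested, 11 were lower and 1 higher at an unadjusted p under 0.05, beside 3.76% and 3.73% of all genes. The median was -0.85. None passed with all libraries, and 3 passed in the narrower fit, CORIN, SLIT2 and SPON1. The summed level of the 18 genes was 2353 and 1891 CPM at 0.7 µM and 1176 and 993 CPM at 3 µM. RNA of a whole culture cannot tell fewer cells of a type from less RNA per cell.

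CORIN, a membrane protease used as a surface marker of the midbrain floor plate, was at 51.7 and 14.3 CPM against 6.82 and 2.15. The pair differences were alike, -2.83 and -2.48, and the log2 fold change was -2.84 (SE 0.55, edgeR adjusted p = 0.186; -2.87 and 0.00309 in the narrower fit). SHH, the ligand the floor plate secretes, was at 278 and 51.2 CPM against 52.1 and 18.7. Its groups overlapped through the replicate difference, although both pairs were lower, by -2.40 and -1.43. The axon guidance cues NTN1, SLIT2 and SPON1, secreted by the floor plate, were lower without overlap, with NTN1 at 301 and 77 CPM against 47.1 and 39.3. SLIT2, a repellent cue, was at 196 and 312 CPM against 84.2 and 132, and its pair differences were nearly equal, -1.22 and -1.24. The transcription factors differed less. FOXA2 had a log2 fold change of -0.69 (SE 0.30) and LMX1A, which specifies the midbrain floor plate, one of -0.79 (SE 0.29), each with an unadjusted p under 0.05 and an adjusted p above 0.5. MSX1, a factor that acts with LMX1A, was the higher member, at 21 and 9.72 CPM against 118 and 18.8, with overlap. OTX2, a factor of the forebrain and midbrain, was at 88.8 and 130 CPM against 122 and 114, and its sign turned with the scaling.

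Receptors for these cues and targets of SHH gave a smaller number of members in the same direction. Of 15 axon guidance receptors tested (17 listed), 5 were lower and 1 higher at an unadjusted p under 0.05 (median -0.50). DCC, the receptor for netrin, was at 37.5 and 94.2 CPM against 16.3 and 14.9, and the ephrin receptor EPHA7 at 35.6 and 98.9 against 16.5 and 33.6. Both were free of overlap and passed in the narrower fit (edgeR adjusted p = 0.0358 and 0.0293). Of 14 hedgehog genes tested (15 listed), 3 were lower and 1 higher (median -0.08). HHIP, a target of hedgehog signalling that binds its ligand, was at 12 and 2.93 CPM against 1.06 and 0.624 and passed in the narrower fit (edgeR adjusted p = 0.0381). NKX2-2, a factor of the ventral neural tube, was at 3.35 and 0.608 CPM against 0.481 and 0.139. Other members of the hedgehog list did not share this direction. In the narrower fit PTCH1 was at -0.0011 (SE 0.23), GLI1 at -0.097 (SE 0.34) and NKX6-1 at 0.83 (SE 0.27), and none of them passed.

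**Figure D3:**
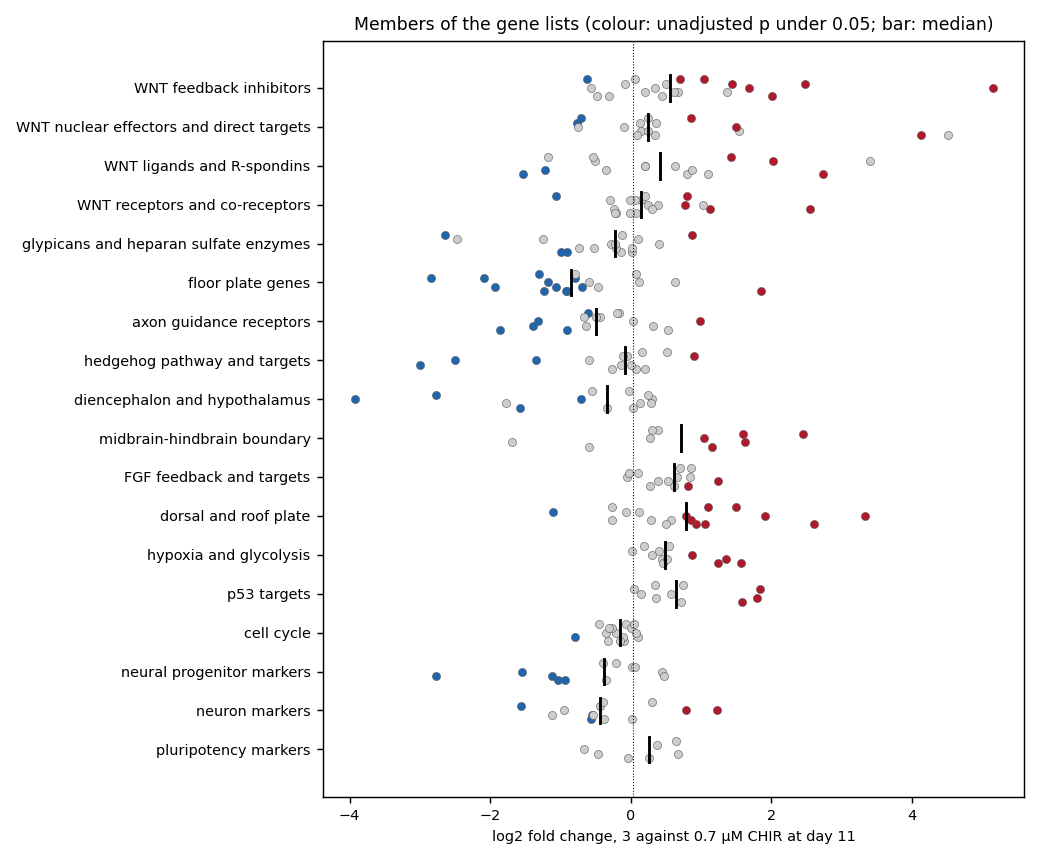
Each point is a tested member of 1 of 18 gene lists, at its log2 fold change between 3 and 0.7 µM; red and blue mark members with an unadjusted p under 0.05, thick bars the median of a list and the dotted line that of all genes. The medians of the floor plate, dorsal and midbrain-hindbrain boundary lists are -0.85, 0.79 and 0.72; 8 of the 26 lists, among them the adrenergic (0.95) and caudal (0.77) lists, are not drawn.

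Some genes of the forebrain were lower and some of the midbrain-hindbrain boundary higher at 3 µM. NKX2-1 (ENSG00000136352), a transcription factor of the hypothalamus and ventral forebrain, was at 13.4 and 8.44 CPM against 0.577 and 0.866. Its groups were far apart, and at a log2 fold change of -3.92 (SE 0.58) it had an edgeR adjusted p of 0.0795, and of 0.00794 in the narrower fit. PAX6, a factor of the forebrain and of neural progenitors, was at 11.2 and 8.18 CPM against 0.769 and 3.12. The 13 diencephalon and hypothalamus genes tested (17 listed) held 4 lower and no higher members with an unadjusted p under 0.05 (median -0.34). Telencephalon genes were scarce, with 6 of 13 tested. Of these 1 was higher and none lower with an unadjusted p under 0.05 (median -0.49).

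Of 10 boundary genes tested (11 listed), 5 were higher and none lower with an unadjusted p under 0.05 (median 0.72), and none passed in either fit. EN1, a factor of the midbrain and anterior hindbrain, was at 3.35 and 8.01 CPM against 29.9 and 12, so nearly all of the difference lay in pair 1 (2.98 against 0.55). PAX2 and PAX5, which act beside EN1, were higher without overlap as well, with PAX5 at 0.777 and 2.8 CPM against 7.3 and 5.09. FGF17, a growth factor of the boundary, was low in both arms, at 0.728 and 0.369 CPM against 3.41 and 2.22, and differed alike in the pairs (1.67 and 1.65). Feedback genes of FGF signalling held 2 higher and no lower members of 13 (median 0.62).

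Dorsal genes made up a large group of higher members. Of 17 tested, 9 were higher and 1 lower with an unadjusted p under 0.05 (median 0.79). PAX3, a factor of the dorsal neural tube, was at 0.0971 and 2 CPM against 2.64 and 9.29 CPM. BMP6, a BMP ligand, was at 0 and 2.17 CPM against 3.84 and 17.9, without overlap, and passed in the narrower fit (edgeR adjusted p = 0.0486). ID3, a target of BMP signalling, was at 49 and 48.2 CPM against 88.4 and 80.4, with little spread in either arm. ID4 was lower at 3 µM, at 54.5 and 46.4 CPM against 25.3 and 21.6, and passed in the narrower fit at -1.14 (edgeR adjusted p = 0.0438). GSX1, a homeobox factor of neural progenitors that belongs to no list and is named by the rank of its p, was at 0.0971 and 0.694 CPM against 6.2 and 5.72.

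Caudal genes appeared at low counts, and 7 of 18 were tested. CDX2, a factor of the caudal embryo, had 0 counts in both 0.7 µM libraries together and 58 at 3 µM, which is at least 26.0-fold higher against a floor of 3 counts over the group. It was seen in both 3 µM libraries, at 2.07 and 0.52 CPM. The brachyury gene T had 1 count at 0.7 µM and 23 at 3 µM, a ratio of 30.9 scaled by library size (95% interval 5.01 to 1272, counting error only). Nearly all of these counts were in replicate 2, and in replicate 1 the levels were 0.0486 and 0.0481 CPM. HOXA2, HOXB1, HOXB2 and HOXB4, which mark the hindbrain, had at most 7 counts in any day 11 library.

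The other genes named by the rank of their p were varied in function. HTR2C, the serotonin receptor 2C, was at 10.8 and 31.1 CPM against 2.21 and 6.13, and MMRN1, a secreted multimerin, at 66.2 and 24.1 against 5.57 and 3.29. Neither overlapped, and both passed in the narrower fit (edgeR adjusted p = 0.00794 each). COL21A1, a collagen chain, was at 32.7 and 38.8 CPM against 7.35 and 9.53. The diacylglycerol kinase gene DGKB was at 20.5 and 16.9 CPM against 4.9 and 4.26, with pair differences of -1.96 and -1.87. CACNG6, a calcium channel subunit, overlapped because replicate 1 was much higher in both arms, at 31.8 and 3.43 CPM against 5.33 and 0.416. REPS2, TXLNB and TMEM47 completed the list with log2 fold changes of -2.25, -1.86 and -1.38. Among the higher genes, ZNF703, a transcriptional cofactor, was at 17.2 and 13.2 CPM against 72.3 and 41.4 CPM, and APLNR, the apelin receptor, at 3.3 and 10.9 against 15 and 30.2. LYPD1 had a log2 fold change of 2.31 (SE 0.34) and the histone gene HIST1H2BK one of 1.51 (SE 0.26). All genes named in this paragraph passed in the narrower fit, with edgeR adjusted p from 0.00745 to 0.0329.

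Genes of cell state differed between the arms too, and their part in the results above was not tested. Of 12 hypoxia and glycolysis genes, 4 were higher at an unadjusted p under 0.05 (median 0.49). In both pairs 11 of the 12 were higher, by any amount, beside 5977 of all 18709 genes tested. SLC2A1, the glucose transporter GLUT1, was at 63 and 1175 CPM against 535 and 2010, so the replicate difference exceeded that between the doses. Of 10 targets of p53, 3 were higher (median 0.65), among them CDKN1A, the cell cycle inhibitor p21, at 24.3 and 147 CPM against 205 and 279. MKI67, a marker of dividing cells, was at 72.2 and 107 CPM against 44.4 and 57.8, and was the single member of 15 cell cycle genes with an unadjusted p under 0.05. The share of gene counts from mitochondrial genes was 6.03% and 3.55% at 0.7 µM and 7.53% and 3.25% at 3 µM.

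Markers of other cell types were mixed. Counts of higher and lower members are at an unadjusted p under 0.05, which 3.73% and 3.76% of all genes met. The summed level of the 10 pluripotency markers was 1242 and 2211 CPM at 0.7 µM and 2095 and 2160 CPM at 3 µM. Most of it was LIN28A, which early neural cells also express, while POU5F1 lay between 0.728 and 1.68 CPM and NANOG had at most 2 counts. Of 7 neural crest markers tested (10 listed) 1 was lower, and FOXD3 and SOX10 had at most 1 and 17 counts. Of 9 mesenchymal and vascular markers tested (12 listed) 2 were higher and 2 lower; the list summed to 106 and 336 CPM against 160 and 408, with CDH5 at no more than 4 counts. The endoderm list summed to 88.1 and 96.3 CPM against 181 and 96.1, with SOX17 at no more than 1 count. Choroid plexus markers summed to 124 and 136 CPM against 140 and 117, with KL at no more than 1 count. Neuron markers summed to 267 and 460 CPM against 193 and 357, with 2 members higher and 3 lower of 13. Of 12 neural progenitor markers 5 were lower, while VIM, NES and SOX2 had log2 fold changes of 0.48, -0.39 and -0.21, none with an unadjusted p under 0.05.

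The step from 0.7 to 3 µM was then placed within the dose series. From 3 to 5 µM no gene passed (0%), and from 3 to 7.5 µM 1948 genes (10.4%) rose and 1918 (10.3%) fell. These comparisons share the 3 µM libraries with the first step, so the values are set side by side. These add up to 3866 genes; without replicate 1 at 3 µM the count was 379, without replicate 2 at 3 µM 1781, without replicate 1 at 7.5 µM 3574 and without replicate 2 at 7.5 µM 6873. Of the 18 genes given in the next 3 paragraphs as rising or falling in this second step, 5 passed without replicate 1 at 3 µM: APCDD1, DCC, MKI67, SULF1 and ADM. Without replicate 2 at 3 µM 11 of the 18 passed, without replicate 1 at 7.5 µM 14, and without replicate 2 at 7.5 µM 16.

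Some genes had a larger estimate in the first step than from 3 to 7.5 µM. These called genes were picked by their first step, and both steps share the 3 µM libraries. Error in those libraries can enlarge the first step and shrink the second, and whether it did was not tested. NOTUM stood at 25.1 and 18.3 CPM at 7.5 µM, and the log2 fold change from 3 to 7.5 µM was 0.57 with a 95% confidence interval of -0.20 to 1.34. ADRA2C stood at 62.9 and 35.3 CPM (0.51, -0.06 to 1.08) and GPC3 at 22.9 and 14.4 CPM (-0.16, -0.76 to 0.44). Each interval excludes a difference as large as the gene's first step, and none shows that the levels were equal. Without replicate 1 at 3 µM the second step of NOTUM was 1.19, and without replicate 2 at 3 µM it was 0.043. In the same order ADRA2C was at 0.29 and 0.74, and GPC3 at -0.29 and -0.03. Both 5 µM libraries of NOTUM (37.6 and 32.9 CPM) and of ADRA2C (135 and 56 CPM) lay above the 7.5 µM library of the same replicate. From 3 to 5 µM ADRA2C differed by 1.39 (95% confidence interval 0.81 to 1.97, edgeR adjusted p = 0.502). Its mean was 33.9 CPM at 3 µM and 95.25 CPM at 5 µM. AC141928.1 was at 79.2 and 98.9 CPM at 5 µM and at 73.4 and 75.5 CPM at 7.5 µM, so its 5 µM libraries too lay above the 7.5 µM library of the same replicate. It rose from 3 to 7.5 µM (1.56, 0.76 to 2.37, edgeR adjusted p = 0.0163), but missed the threshold without replicate 1 at 3 µM (0.97, edgeR adjusted p = 0.26) and without replicate 1 at 7.5 µM (1.09, edgeR adjusted p = 0.0507). Whether this step differed from that of ADRA2C was not tested.

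Other genes differed again in the direction of the first step. DKK1 reached 145 and 311 CPM at 7.5 µM (log2 fold change 2.31 from 3 µM, edgeR adjusted p = 0.0127, or 0.0584 without replicate 1 at 7.5 µM). PAX3 reached 16.6 and 34.4 CPM and FGF17 45.6 and 7.9 CPM, and both rose from 3 to 7.5 µM with and without that library. EN1 reached 113 and 84.6 CPM, a rise of 2.32 (edgeR adjusted p = 0.0161, or 0.0522 without it). DCC went down to 0.559 and 3.19 CPM, a drop that passed with and without it (edgeR adjusted p = 0.00433 and 0.00528). APCDD1 had nearly its whole difference in this second step, at 367 and 257 CPM (4.70, edgeR adjusted p = 0.000531).

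A further set had estimates of opposite sign in the 2 steps. None of these genes passed in the first step with all 8 libraries. WNT5A, LMX1A, SULF1, MKI67, CDKN1A and ADM did not pass in the narrower fit either. Both steps share the 3 µM libraries, so error in those libraries alone can give opposite signs, and whether it did was not tested. SLIT2, lower at 3 µM, rose by 1.07 on the log2 scale to 180 and 273 CPM at 7.5 µM (edgeR adjusted p = 0.0126), within the range of its 0.7 µM libraries or just below it. WNT5A (1.64), MMRN1 (1.74), TXLNB (1.88), LMX1A (1.54) and SULF1 (2.37) did likewise, each with an edgeR adjusted p from 0.00168 to 0.033. MKI67 rose most among these, by 2.50, to 247 and 333 CPM, above both 0.7 µM libraries. CDKN1A (-1.87), HIST1H2BK (-1.19), PHLDA3 (-1.05) and ADM (from 41.3 and 133 CPM to 5.96 and 13.8) fell between 3 and 7.5 µM, with edgeR adjusted p from 0.00421 to 0.0329. Their first-step estimates were upward, but ADM overlapped there, at 8.11 and 94.6 CPM against 41.3 and 133 (edgeR adjusted p = 0.551). Without replicate 1 at 7.5 µM PHLDA3 missed the threshold (edgeR adjusted p = 0.0654), and without replicate 2 at 7.5 µM MMRN1 (0.148) and CDKN1A (0.0889) did; the others passed in both.

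**Figure D4:**
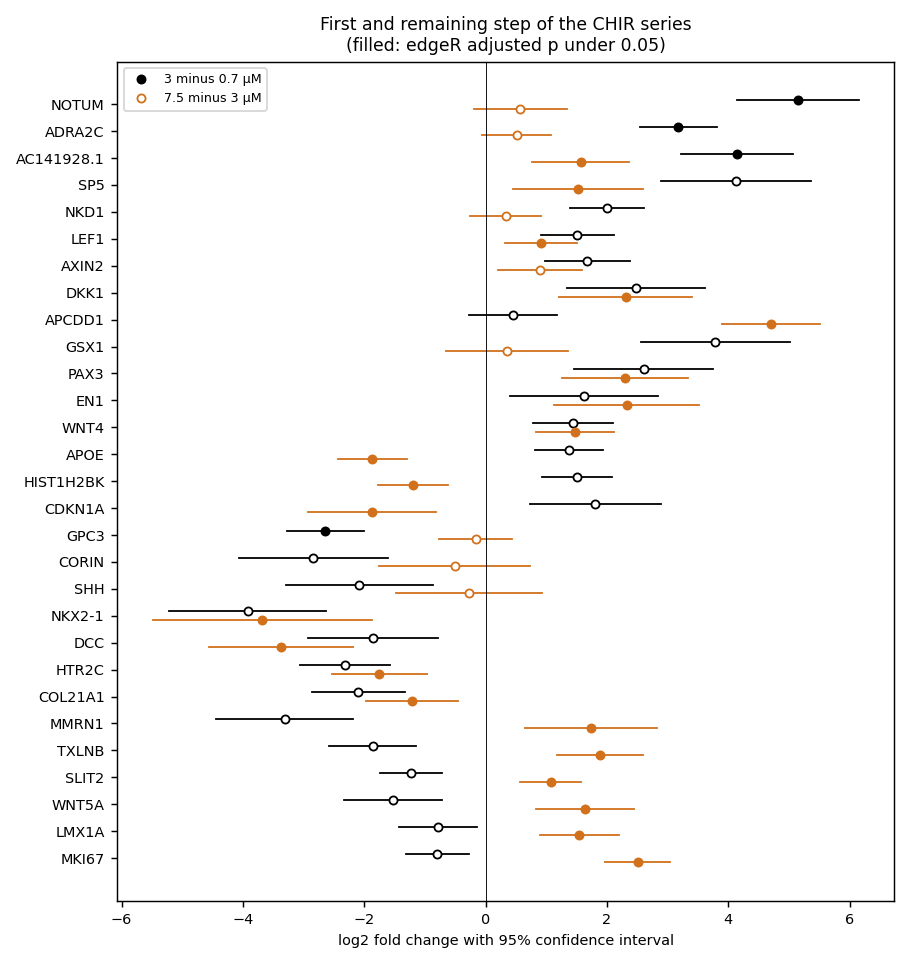
For 29 genes, points give the log2 fold change from 0.7 to 3 µM (black) and from 3 to 7.5 µM (orange) with 95% confidence intervals; filled points have an edgeR adjusted p under 0.05. The second interval of NOTUM, ADRA2C, NKD1, GPC3, CORIN and SHH spans 0, that of APCDD1 lies far above its first, and SLIT2, WNT5A, MMRN1, TXLNB, LMX1A and MKI67 have intervals on opposite sides of 0.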

How the data were processed

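The authors deposited read counts per gene. Per the submitters' processing notes the tools were HTSeq 0.5.3, featureCounts 1.4.2, DESeq2 1.12.4 and STAR 2.4.2a, and the genome hg19. How strand was handled, and with which gene models, is not given in the sources used here. At day 11, 5 summary entries per library, 37.4% to 44.3% of all counts, stayed out of library sizes and tests. The other 6 libraries of the series were not used.

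The 8 day 11 libraries were fitted with edgeR 4.0.16 (R 4.3.3), with the low-count filter filterByExpr, scaling by TMM, robust quasi-likelihood F-tests, replicate number as a block, 3 residual degrees of freedom, Benjamini-Hochberg adjustment over 18709 genes and a threshold of 0.05. The pairing comes from the data (correlations of deviations at least 0.70, threshold 0.1) and a code shared by same-numbered libraries. No label says that replicates were grown separately, so the spread behind each p-value may be technical. On simulated data with known changes the blocked fit called 96 of 100 genes changed 4-fold and 23 of 100 changed 2-fold. Of its 133 calls 14 were false. Whether the simulation copied the spread of the real libraries was not tested, so these shares are not the power of the real comparison. There the fit called 4 genes. NKD1 (log2 fold change 2.01, edgeR adjusted p = 0.0599), DGKB (-2.03, 0.096) and NKX2-1 (-3.92, 0.0795) did not reach the threshold. Whether these genes truly differ is not known.

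Genes were named by rule: those past the threshold, the 10 higher and 10 lower with the smallest p among genes of at least 5 CPM and 2-fold in both pairs, up to 4 members of each of 26 lists by p, and fixed key genes. ZNRF3, RNF43, APCDD1, MSX1, SOX2, VIM, NES and those first named in the closing section, except COL1A1, were chosen after their values were seen. The members and lists were chosen with earlier results of these data known. Gene types and neighbours came from GENCODE 29, joined by identifier for 18206 of 18709 genes; no coordinates of the files were used. Promoter windows came from RefSeq, for 81 of 121 genes named by rule. DESeq2 1.42.0 and limma 3.58.1 served as alternatives.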

Additional observations from a re-analysis of the deposited data

How the results depend on the processing

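The number of genes passing at 3 against 0.7 µM depended on which libraries set the spread. With the replicate block and only the 4 libraries compared, 700 passed (1 residual degree of freedom), without the 7.5 µM libraries 88, without replicate 1 at 7.5 µM alone 154 (an alternative added after seeing the data, holding all 88) and without the 5 µM libraries 11. Without the replicate block no gene passed with edgeR, whether on 8 libraries (0 genes, 276 at an unadjusted p under 0.05) or 4 (0 genes, 85 at an unadjusted p under 0.05), and 17 passed with DESeq2. DESeq2 with the block passed 196, and edgeR without a filter on low counts 320. RLE scaling, library totals, the filter at 1 CPM, the fit without robust dispersion and limma voom gave 4 to 6. Leaving out 1 of the 4 libraries gave 0 to 59 genes, with 0 without replicate 1 at 0.7 µM (1021 at an unadjusted p under 0.05). The 4 called genes passed in every blocked alternative except those that left out replicate 1 at 0.7 µM or, for GPC3, replicate 1 at 3 µM. For 7.5 against 3 µM no gene passed without the block (0 genes, 2162 at an unadjusted p under 0.05), and leaving out 1 library gave 379 to 6873 against 3866; library totals turned its split from 1948 higher and 1918 lower to 3358 and 965. The count of genes 2-fold in both pairs was 372 with 0.1 added to the CPM and 77 with 2 added, against 174; library totals gave 51 higher and 114 lower, and moved the median of all genes to -0.16. Of 102 genes examined, 97 kept their sign throughout. OTX2 reversed with library totals (-0.066). Leaving out 1 of the 4 libraries gave values on both sides of 0 for OTX2 (-0.20 to 0.48), LIN28A (-0.014 to 0.84), SOX2 (-0.50 to 0.12), NES (-0.77 to 0.080) and APCDD1 (-0.028 to 0.89). The cause was not tested. Depth limits genes near 1 count, such as T and CDX2.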

Other observations

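Genes outside the lists and the naming rule also passed without the 7.5 µM libraries. Those given here, apart from COL1A1, which the rule names, were chosen after their values were seen. Among genes of the extracellular matrix some were lower and some higher at 3 µM. The genes of the basement membrane proteins nidogen 1 and 2 were lower, with NID1 at 80.3 and 121 CPM at 0.7 µM against 40.9 and 60.8 CPM at 3 µM, and NID2 at 43.4 and 11 CPM against 9.95 and 4.51. The pair differences of NID1 were nearly equal, -0.96 and -0.99, while those of NID2 were -2.07 and -1.21. EDIL3, a matrix protein that binds integrins, was at 17.4 and 37.3 CPM against 6.1 and 12.6. COL1A1, a chain of collagen type I and a member of the mesenchymal list, was higher, at 3.35 and 21.1 CPM against 8.79 and 46.2, with overlap. EGFLAM, the matrix protein pikachurin, was at 0 and 0.694 CPM at 0.7 µM, 0.961 and 6.62 CPM at 3 µM and 13.9 and 30.2 CPM at 7.5 µM.

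Other genes of this kind were varied. APOE, the apolipoprotein E, was at 92.4 and 118 CPM at 0.7 µM, 279 and 257 CPM at 3 µM and 61.1 and 88.7 CPM at 7.5 µM. The groups at 0.7 and 3 µM did not overlap, and the drop from 3 to 7.5 µM was -1.86 (edgeR adjusted p = 0.00262, and 0.039 without replicate 1 at 3 µM). SCARB1, a receptor for high-density lipoprotein, was at 24 and 42.3 CPM, then 65.9 and 85.1, then 39.1 and 49, and its second step missed the threshold (edgeR adjusted p = 0.0507). VGF, a neuropeptide precursor, differed mainly between replicates, at 1.36 and 13.8 CPM at 0.7 µM and 5.53 and 45.3 CPM at 3 µM, yet its pair differences were 1.70 and 1.68. GAD1, an enzyme that makes GABA, was at 1.7 and 11.1 CPM, then 12.4 and 33.4, then 87.3 and 94, higher in both pairs at each of these doses.

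SFTA3, the coding gene nearest to NKX2-1, was at 1.46 and 2.43 CPM against 0.0961 and 0.0693, and like NKX2-1 had no overlap. Whether reads of overlapping transcripts contribute was not tested.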
